A study of Homo sapiens with 21 samples.

Results

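The genes described here are 10 members of the YAP pathway, taken from a list of symbols and found in the data through their Ensembl identifiers: YAP1, WWTR1, TEAD1, CCN1, CCN2, CCN3, CCN4, AJUBA, ANKRD1 and AMOTL2. They are 10 of the 58870 genes measured. RNA-seq was performed on 21 libraries of A375, a human melanoma line with a mutant BRAF kinase, and of lines made from it. The study examined cells that lack SOX10, a transcription factor of the melanocyte lineage, and cells that tolerate inhibitors of the BRAF and MEK kinases.

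Each of the 7 groups had 3 libraries. Parental A375 cells carried no edit and received no drug. In gSOX10 #2 and gSOX10 #4, SOX10 was knocked out by CRISPR/Cas9 with 1 guide RNA each, and each group is a single clone, so that a clone and a guide cannot be told apart. CRT34 and CRT35 are inhibitor-tolerant lines that were grown out from A375 tumors in mice, and are not edited. Libraries of both lines came from cells under the BRAF inhibitor PLX4720 (1 µM) with the MEK inhibitor PD0325901 (35 nM), called Combo, or under the solvent, called DMSO, for a time that the labels do not give. The study's methods state that the CRT lines were kept with both inhibitors at these doses. DMSO may thus be a withdrawal of the drugs. A rise or fall under Combo means against DMSO, and an effect of the drugs and one of their withdrawal cannot be told apart. Parental cells were not sequenced with the inhibitors, so no Combo or DMSO effect could be set beside one in the line of origin. The study describes the replicates of both knockout clones as independent. For the other groups neither the labels nor that description says so, so the spread behind their p-values is that of these libraries and may be technical.

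YAP1 and its paralog TAZ, the product of WWTR1, are transcriptional co-activators without a DNA-binding domain of their own. They are held in the cytoplasm when LATS1/2, the kinases downstream of MST1/2 in the Hippo cascade, phosphorylate them. In the nucleus they bind TEAD factors, which bind DNA. CCN1 (CYR61), CCN2 (CTGF), ANKRD1, AJUBA and AMOTL2 are widely used YAP/TEAD target genes, and YAP/TEAD output is known for its association with drug tolerance in BRAF-mutant melanoma. The activity of YAP and TAZ is set by phosphorylation and localization, which RNA levels do not measure.

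The TEAD recognition sequence lies close to the start of several of the targets. RefSeq promoter entries (GRCh38.p14) matched 6 of the 10 genes: YAP1, WWTR1, CCN2, ANKRD1, AJUBA and AMOTL2. In the 250 bases before the start, GGAATG or its reverse complement CATTCC was found 3 times for CCN2, with first bases at positions -169, -104 and -95 from the start, and 2 times for ANKRD1, at -220 and -128. YAP1 had 1 match, at -162, AMOTL2 had 1 match upstream of 1 of its 2 starts, at -69, and neither start of WWTR1 had any. AJUBA had none upstream of the start of its transcript AJUBA-201, and 1 upstream of another RefSeq start inside the gene, whose first bases no GENCODE transcript holds, so its sequence is not shown. Of the 35116 promoters in the table, 11.9% held at least 1 match, 0.940% at least 2 and 0.0826% at least 3. The AP-1 motif (TGACTCA or TGAGTCA, in 4.20% of promoters) and the serum response factor motif known as the CArG box (in 1.16%) had no match upstream of any of the 6 genes, which says only that these letters are not in this window. The targets called higher under Combo in both lines below were AJUBA, with no match upstream of AJUBA-201, and CCN1, which had no promoter entry. CCN2, ANKRD1 and AMOTL2 were each called in 1 line, a call that was lost in some alternatives. The upstream sequences of CCN2, ANKRD1 and AMOTL2 are given because they hold TEAD motifs. They read 5′ to 3′ toward the gene, on the minus strand, with the motif in capitals: CCN2 at chr6:131951373-131951622, ANKRD1 at chr10:90921088-90921337 and AMOTL2 at chr3:134374448-134374697.
CCN2: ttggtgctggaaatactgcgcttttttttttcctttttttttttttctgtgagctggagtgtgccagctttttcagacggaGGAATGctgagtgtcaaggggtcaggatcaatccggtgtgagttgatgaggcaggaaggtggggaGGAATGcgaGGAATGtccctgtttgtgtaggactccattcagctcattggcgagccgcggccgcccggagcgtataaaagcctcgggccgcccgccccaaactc
ANKRD1: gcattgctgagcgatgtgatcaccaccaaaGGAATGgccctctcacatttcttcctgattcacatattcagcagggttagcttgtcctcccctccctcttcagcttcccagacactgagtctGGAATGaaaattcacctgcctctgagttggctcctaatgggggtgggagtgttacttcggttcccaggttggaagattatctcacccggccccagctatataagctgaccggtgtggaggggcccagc
AMOTL2: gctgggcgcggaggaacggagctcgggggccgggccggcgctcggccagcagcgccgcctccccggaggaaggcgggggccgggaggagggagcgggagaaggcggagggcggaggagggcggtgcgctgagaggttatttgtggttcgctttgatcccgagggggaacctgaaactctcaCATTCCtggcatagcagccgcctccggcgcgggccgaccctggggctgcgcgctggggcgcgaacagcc

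Values are the deposited gene levels, made comparable between libraries by the authors, and library totals ran from 59.2 M to 68.3 M. Depth, estimated as the total divided by the most frequent low value, ran from about 27.1 M reads in CRT35 DMSO replicate 1 to 75.5 M. The estimate is rough, since only 18.0% to 63.5% of low values lay near whole multiples of that value. Changes are log2 differences of value + 1 with their standard error (SE), from a limma model over all 21 libraries, in which 19290 genes passed a filter on low values, all 10 members among them. CCN4 passed only through the CRT groups. A gene is called higher or lower, or said to have risen or fallen, where its adjusted p was at most 0.05 and its fold change at least 2, the study's thresholds. One library stood apart from its label: CRT34 Combo replicate 3 correlated on average more with CRT34 DMSO (r = 0.982 on the log2 scale) than with the other CRT34 Combo libraries (0.979). Member calls in the CRT34 Combo comparisons that changed without it are given both ways, as are those of the YAP/TAZ target and AP-1 lists between Combo and DMSO. SOX10 was between 10348 and 12822 in parental libraries, between 392 and 517 in both knockout clones, and at most 6.32 in the CRT libraries.

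Under the inhibitors, most of the 5 YAP/TEAD targets rose while YAP1 and TEAD1 were called in neither line. In CRT34, AJUBA rose 3.69-fold, CCN1 2.86-fold, CCN2 4.06-fold and ANKRD1 by 6.82 on the log2 scale. In CRT35, CCN1 rose 4.72-fold, AJUBA 2.94-fold and AMOTL2 2.80-fold, and WWTR1 fell 2.55-fold. The CRT34 calls of CCN1, CCN2 and ANKRD1 were lost in a fit of the CRT34 libraries alone and in one with the replicate number as a block, and AJUBA kept its call in both. The plot of all members by library shows these levels for all 7 groups.

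**Figure D1:**
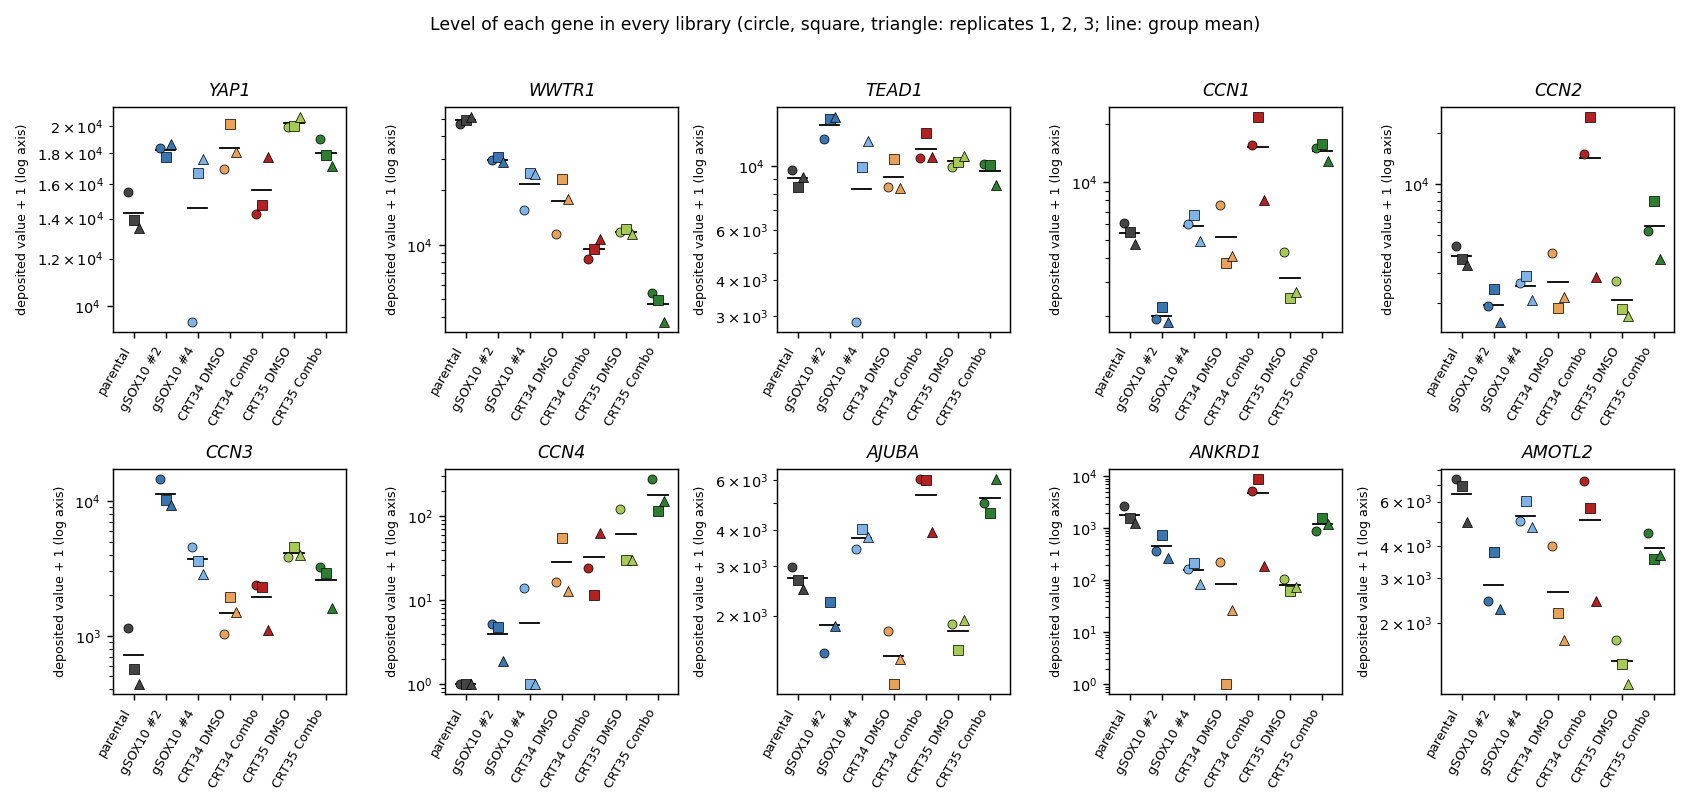
Deposited value + 1 (log axis) of each of the 10 genes in every library of the 7 groups, with replicates 1 to 3 as circle, square and triangle and the group mean as a line. CCN1 and AJUBA are higher in every Combo library than in any DMSO library of the same line, while CRT34 Combo replicate 3 lies far below the other CRT34 Combo libraries for CCN2 (2850) and ANKRD1 (191).

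In CRT34 4 of the 10 members were called higher and none lower, against 2.84% of all tested genes higher and 2.26% lower. In CRT35 3 were called higher and 1 lower, against 0.487% and 0.648% of all tested genes. These shares also stand beside the counts of the gene lists below between Combo and DMSO. The median log2 change of the 10 genes was 0.63 in CRT34 and 1.45 in CRT35, beside 8e-04 and 0.014 over all tested genes. The groups did not overlap for 4 members in CRT34 and 8 in CRT35, against 21.7% and 26.3% of all tested genes.

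CCN1 (ENSG00000142871.17, chromosome 1, 85580761 to 85584589) encodes a secreted matricellular protein that binds integrins and is an immediate target of YAP/TEAD. In CRT34 it stood at 15641, 21764 and 7997 under Combo and at 7575, 3779 and 4080 under DMSO. For CRT35 the values were 14995, 15688 and 12762 under Combo and at 4331, 2479 and 2663 under DMSO. Every Combo library was thus above every DMSO library of its line, narrowly so for CRT34 Combo replicate 3. The log2 change was 1.51 in CRT34 (SE 0.30, adjusted p = 0.00399) and 2.24 in CRT35 (SE 0.30, adjusted p = 0.000496), and 1.92 in CRT34 without Combo replicate 3 (adjusted p = 0.000112). The CRT34 call was lost with the CRT34 libraries alone (adjusted p = 0.141) and with the replicate block (adjusted p = 0.123).

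CCN2 (ENSG00000118523.6, chromosome 6, 131948176 to 131951372), a secreted relative of CCN1 and a marker of profibrotic signaling, has the 3 TEAD motifs shown above. In CRT34 it was 15056, 24830 and 2850 under Combo and 3944, 1864 and 2162 under DMSO. Combo replicate 3 lay inside the DMSO range and the other two lay far above it. The log2 change was 2.02 (SE 0.52, adjusted p = 0.021), and 2.94 without that library (adjusted p = 1.87e-05). The call was lost without Combo replicate 1 (log2 change 1.74, adjusted p = 0.0917), Combo replicate 2 (1.38, 0.134), DMSO replicate 2 (1.81, 0.082) or DMSO replicate 3 (1.91, 0.0714), with the CRT34 libraries alone (adjusted p = 0.247) and with the replicate block (adjusted p = 0.201). In CRT35 the values were 5312, 7986 and 3613 under Combo and 2696, 1824 and 1671 under DMSO, without overlap, and the log2 change of 1.41 (SE 0.52) was not called (adjusted p = 0.197). It was called with the CRT35 libraries alone (adjusted p = 0.043) and with the block (adjusted p = 0.0292).

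ANKRD1 (ENSG00000148677.6, chromosome 10, 90912096 to 90921087), which encodes a nuclear ankyrin repeat protein known from stretched muscle, varied most of the members. Under Combo it was 5268, 8820 and 191 in CRT34, against 226, 0 and 26.0 under DMSO. Combo replicates 1 and 2 were far above all DMSO libraries, and Combo replicate 3 lay among them. The log2 change was 6.82 (SE 1.37, adjusted p = 0.00475) and 5.58 with a pseudocount of 10, since 1 DMSO library is listed at 0. The call was lost with the CRT34 libraries alone (adjusted p = 0.183) and with the replicate block (adjusted p = 0.187). In CRT35 ANKRD1 was 887, 1565 and 1196 under Combo and 106, 61.2 and 71.7 under DMSO. These did not overlap, yet the log2 change of 3.92 (SE 1.37) missed the threshold (adjusted p = 0.173) in the model that shares its error with all groups. In a fit of the CRT35 libraries alone it passed (adjusted p = 0.00153), as it did with the block (adjusted p = 0.00664).

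AJUBA (ENSG00000129474.16, chromosome 14, 22971177 to 22982551) is a LIM domain protein that restrains LATS kinases and is itself a target of YAP. It had the lowest p of the members in both lines. Under Combo it was 6051, 6004 and 3947 in CRT34 and 4978, 4603 and 6046 in CRT35. Under DMSO it was 1761, 1146 and 1412 in CRT34 and 1863, 1508 and 1937 in CRT35. Neither line showed overlap, including CRT34 Combo replicate 3. The log2 changes were 1.88 (SE 0.19, adjusted p = 1.59e-05) and 1.56 (SE 0.19, adjusted p = 0.000232), and both calls held in each of the 13 alternatives run for them, with adjusted p between 1.84e-06 and 0.0347 in CRT34 and between 0.000178 and 0.0052 in CRT35.

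AMOTL2 (ENSG00000114019.14, chromosome 3, 134355347 to 134375479), an angiomotin that binds YAP and holds it at junctions and actin, is both an inhibitor and a target of the pathway. In CRT35 it was 4517, 3576 and 3708 under Combo and 1708, 1383 and 1148 under DMSO, a log2 change of 1.49 (SE 0.33, adjusted p = 0.0289). In CRT34 it was 7211, 5637 and 2436 under Combo and 4012, 2183 and 1721 under DMSO, a change of 0.90 (SE 0.33, adjusted p = 0.108). The CRT34 groups overlapped through Combo replicate 3, without which the change was 1.37 and was called (adjusted p = 0.0041). The CRT35 call was lost in 5 of the 6 fits that left out 1 library, with an adjusted p of up to 0.144 without CRT35 Combo replicate 1 and values between 0.0613 and 0.128 without Combo replicate 2 or 3 or DMSO replicate 2 or 3.

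Of the co-activators, WWTR1 was called in CRT35, and YAP1 in neither line. WWTR1 (ENSG00000018408.14, chromosome 3, 149517235 to 149736714) was 5435, 4923 and 3737 under Combo in CRT35 against 11759, 12290 and 11472 under DMSO, and fell by 1.35 on the log2 scale (SE 0.21, adjusted p = 0.00192). In CRT34 it was 8395, 9463 and 10762 against 11448, 23115 and 17865. All CRT34 Combo libraries were below all DMSO libraries, but the change of -0.82 (SE 0.21, adjusted p = 0.0198) was short of 2-fold. Without CRT34 DMSO replicate 1, the lowest of its group, it was -1.10 and was called (adjusted p = 0.00175).

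YAP1 (ENSG00000137693.14, chromosome 11, 102110447 to 102233424) was 14266, 14775 and 17765 under Combo and 16973, 20131 and 18074 under DMSO in CRT34. CRT35 had 19004, 17903 and 17111 under Combo and 19900, 20007 and 20703 under DMSO. The groups overlapped in CRT34 and were just apart in CRT35. The log2 change was -0.24 in CRT34 (95% interval -0.59 to 0.11, adjusted p = 0.446) and -0.17 in CRT35 (-0.52 to 0.18, adjusted p = 0.665), so changes of 2-fold lie outside both intervals.

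TEAD1 (ENSG00000187079.17, chromosome 11, 12674421 to 12944737), which encodes a TEAD factor, was 10626, 12949 and 10721 under Combo and 8469, 10561 and 8347 under DMSO in CRT34. The change was 0.33 (95% interval -0.35 to 1.00, adjusted p = 0.624). In CRT35 it was 10117, 10031 and 8593 under Combo and 9911, 10292 and 10854 under DMSO, a change of -0.11 (-0.79 to 0.56, adjusted p = 0.897). Neither line showed a called difference, and the CRT34 interval reaches 2-fold.

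The other CCN members did not pass in either line. CCN3 (NOV, ENSG00000136999.5), a secreted relative that is known to counter CCN2 in several settings, was 2384, 2314 and 1105 under Combo and 1022, 1926 and 1497 under DMSO in CRT34 (log2 change 0.35, adjusted p = 0.634). In CRT35 it was 3232, 2918 and 1619 under Combo and 3850, 4566 and 3956 under DMSO (-0.73, adjusted p = 0.332). CCN3 was lower in each CRT35 Combo library than in each DMSO library, whereas the CRT34 groups overlapped.

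CCN4 (WISP1, ENSG00000104415.14), a secreted relative described as a WNT target, was low in CRT34 (23.3, 10.6 and 62.2 under Combo and 15.4, 54.2 and 12.0 under DMSO). In CRT35 it was 275, 114 and 151 under Combo and 121, 29.2 and 29.2 under DMSO. The groups overlapped in both lines, and the changes of 0.20 (adjusted p = 0.936) and 1.81 (adjusted p = 0.338) were not called. With the replicate block the CRT35 change was called (adjusted p = 0.0332). The sign in CRT34 turned under several alternatives, for example to -0.44 without Combo replicate 3.

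The difference between the drug effects of the lines was tested directly. None of the 10 members passed, against 0.0104% of all tested genes (2 genes) that did. At an unadjusted p under 0.05 the only member was CCN3, with a difference of -1.08 (95% interval -2.13 to -0.03, adjusted p = 0.693). ANKRD1 differed by -2.91 (-6.97 to 1.16), CCN2 by -0.62 (-2.15 to 0.92), AMOTL2 by 0.58 (-0.41 to 1.57) and CCN1 by 0.72 (-0.16 to 1.61), so differences well over 2-fold remain within these intervals. A call in 1 line and not in the other, as for CCN2, ANKRD1 and AMOTL2, is therefore not shown to be a difference between the lines. Members were called in this test in none of the alternatives.

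**Figure D2:**
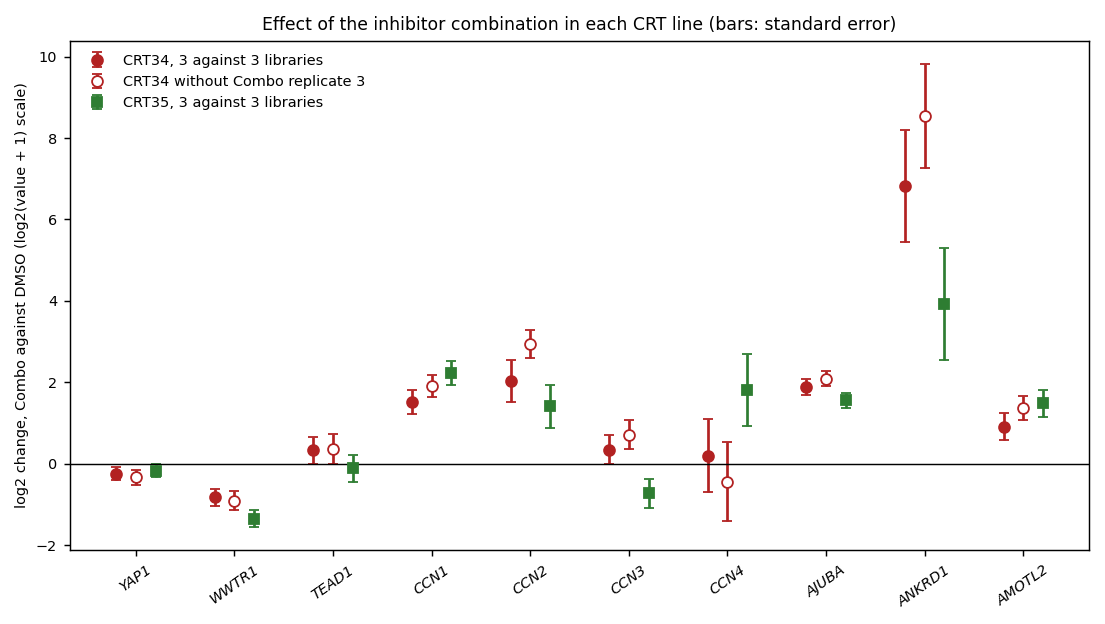
Log2 change between Combo and DMSO for each member (points) with its standard error (bars), in CRT34 (red circles), in CRT34 without Combo replicate 3 (open red circles) and in CRT35 (green squares). AJUBA and CCN1 are well above 0 in all 3, WWTR1 is below 0, and the removal of that 1 library raises ANKRD1 from 6.82 to 8.54 and CCN2 from 2.02 to 2.94.

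Genes that report on the drugs' own pathway gave a check of inhibition in these libraries. DUSP6, a phosphatase induced by ERK, was 1751, 1931 and 2173 under Combo and 8230, 12614 and 13414 under DMSO in CRT34, and in CRT35 4491, 3246 and 1562 against 17058, 14058 and 13478. It fell by 2.52 (adjusted p = 2.67e-05) and by 2.38 (adjusted p = 0.000169), and CRT34 Combo replicate 3 did not stand apart for it. Of 10 MAPK output genes, 5 fell in CRT34 (with SPRY4, PHLDA1, SPRY2 and ETV4) and 6 in CRT35 (the same 5 and DUSP4), none rose, and the median change was -1.29 and -1.53.

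Among the 11 genes of the Hippo kinase cascade, MAP4K4 was the only one called, in either line. This kinase, which can act on LATS1/2 in parallel to MST1/2, was 6943, 7865 and 10358 under Combo and 18058, 15125 and 17355 under DMSO in CRT34. The CRT35 libraries were at 9801, 11931 and 11978 against 22332, 25783 and 28153. It fell by 1.02 (adjusted p = 3e-04) and by 1.18 (adjusted p = 0.000232), with no overlap in either line. None of 15 upstream regulators was called in either line, and AMOT was called higher in CRT34 without Combo replicate 3 (1.75, adjusted p = 0.037).

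A second list held 18 other genes that are often taken as YAP/TAZ targets. In CRT34 2 were higher and none lower, against 2.84% and 2.26% of all tested genes: MYOF, a membrane repair protein, by 1.27 (adjusted p = 0.00452) and F3, tissue factor, by 1.76 (adjusted p = 0.033). In CRT35 1 was higher and none lower, against 0.487% and 0.648% of all tested genes: TGFB2, a TGF-beta ligand, by 1.88 (adjusted p = 0.0214). The medians were 0.35 and 0.57, against 0.63 and 1.45 for the 10 members, and AXL, IGFBP3, CRIM1 and NT5E were among those not called in either line. For F3 in CRT34, Combo replicate 3 was again the low library, with 16675, 27586 and 4936 under Combo against 7415, 2180 and 3635. Without it 4 of the 18 were called higher: F3 (2.46, adjusted p = 0.000658), MYOF (1.68, adjusted p = 2.4e-05), AXL (1.07, adjusted p = 0.0231) and GADD45A (1.18, adjusted p = 0.000896).

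Serum response factor targets, which share actin-dependent control with many YAP targets, were split. None of 13 was called in CRT34 (median 0.02), while CALD1 (1.18, adjusted p = 0.0173) and MYL9 (1.14, adjusted p = 0.0241), both of the contractile apparatus, rose in CRT35 (median 0.91). The share of all tested genes that rose in CRT35 was 0.487%. The difference between the lines was called for none of the 13. Of 8 AP-1 subunits, which often share enhancers with TEAD factors, FOS, JUNB and FOSB fell in CRT34 (by 2.04, 1.52 and 1.31) and none was called in CRT35. Without CRT34 Combo replicate 3, FOSB was no longer called (-0.91, adjusted p = 0.0897), and JUN (1.59, adjusted p = 0.00934) and ATF3 (2.26, adjusted p = 0.000414) were called higher.

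**Figure D3:**
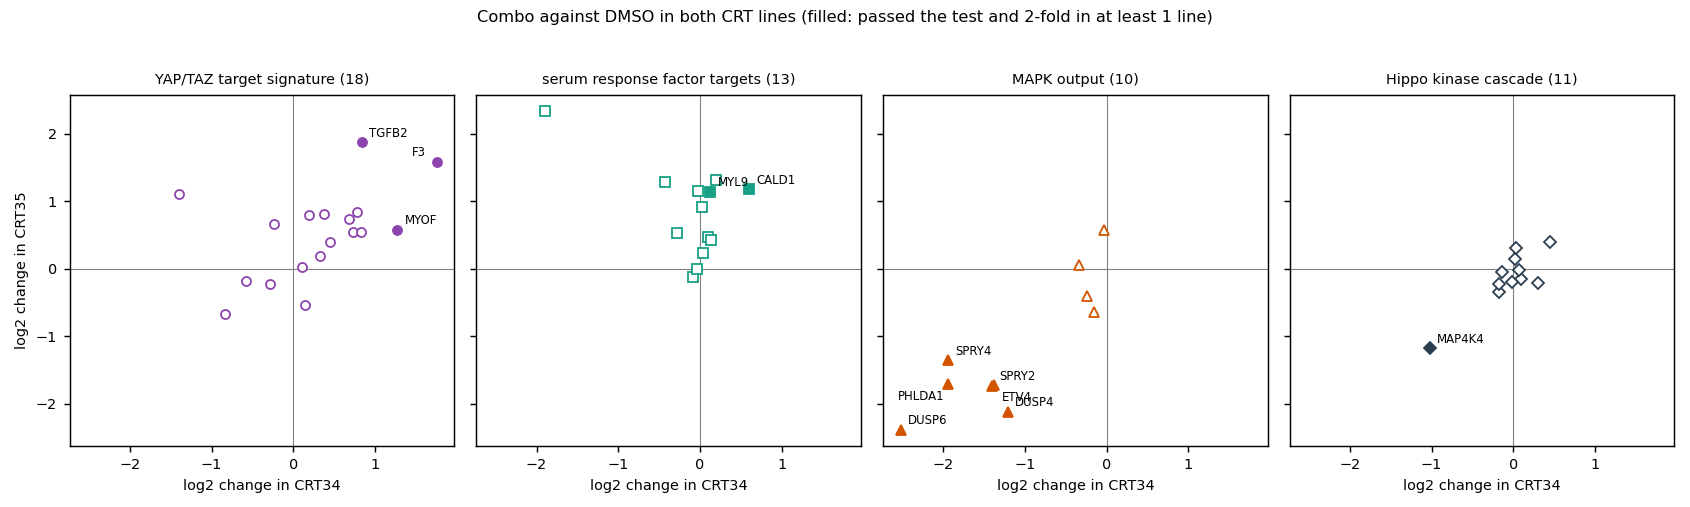
Log2 change between Combo and DMSO in CRT34 (x axis) and CRT35 (y axis) for the genes of 4 lists, 1 panel each, filled where the gene was called in at least 1 line. The called MAPK output genes lie below 0 on both axes, MAP4K4 is the only called kinase of the Hippo cascade, and the YAP/TAZ target genes called lie above 0 on both axes.

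Among the other TEAD, VGLL and CCN genes, CRT34 showed 2 calls under Combo. VGLL2, a TEAD cofactor of muscle, was 722, 793 and 77.4 against 52.1, 11.4 and 24.1 (log2 change 3.80, adjusted p = 0.0218). CCN5, a CCN protein without the C-terminal domain, was 218, 46.9 and 29.95 against 1.40, 10.6 and 13.5 (3.21, adjusted p = 0.0109). Without CRT34 Combo replicate 3 the changes were 4.89 for VGLL2 (adjusted p = 0.00224) and 3.79 for CCN5 (adjusted p = 0.00324). In CRT35 VGLL2 was at most 14.7 in any library, and CCN5 was 61.1, 25.8 and 44.7 against 11.1, 2.48 and 4.14 without passing (2.82, adjusted p = 0.0615). TEAD2, TEAD3, TEAD4, VGLL3, VGLL4 and CCN6 were called in neither line, and VGLL1 was listed at 0 in all libraries.

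Relative to parental cells, WWTR1 was lower in all 6 other groups, in steps. It was 46562, 48914 and 51008 in parental libraries, between 28862 and 30724 in gSOX10 #2 and between 15543 and 25063 in gSOX10 #4. The changes were -0.72 in gSOX10 #2 (adjusted p = 0.00916, short of 2-fold), -1.20 in gSOX10 #4, -1.54 in CRT34 DMSO, -2.04 in CRT35 DMSO, -2.36 in CRT34 Combo and -3.39 in CRT35 Combo, the last leaving 9.62% of the parental mean. In this order only the steps from parental to gSOX10 #2 (adjusted p = 0.00916) and from CRT34 Combo to CRT35 Combo (adjusted p = 0.0024) differed between neighbours. In gSOX10 #4 the call rested on replicate 1, the lowest library, without which the change was -0.97.

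YAP1 was called in none of these comparisons, with group means from 14326 (parental) to 20203 (CRT35 DMSO) and no difference between neighbours in the order of its levels. In CRT35 DMSO it was above parental by 0.50 (adjusted p = 0.0212), without overlap but short of 2-fold. Levels of different genes were set side by side per kilobase of a single reference transcript of each gene (MANE Select). Which transcripts these cells express was not considered, and other lengths would change the ratios. On this scale YAP1 was at 0.275 ± 0.033 of WWTR1 (SD, n = 3) in parental libraries. The ratio was 0.574 ± 0.033 in gSOX10 #2, 0.617 ± 0.051 in gSOX10 #4, 1.05 ± 0.30 in CRT34 DMSO and 1.59 ± 0.083 in CRT35 DMSO. It was 1.53 ± 0.065 in CRT34 Combo and 3.64 ± 0.55 in CRT35 Combo. By this measure WWTR1 was the more abundant transcript in parental cells and in the clones, and YAP1 in CRT35 DMSO and in both lines under Combo. The CRT34 DMSO libraries lay on either side of 1.

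**Figure D4:**
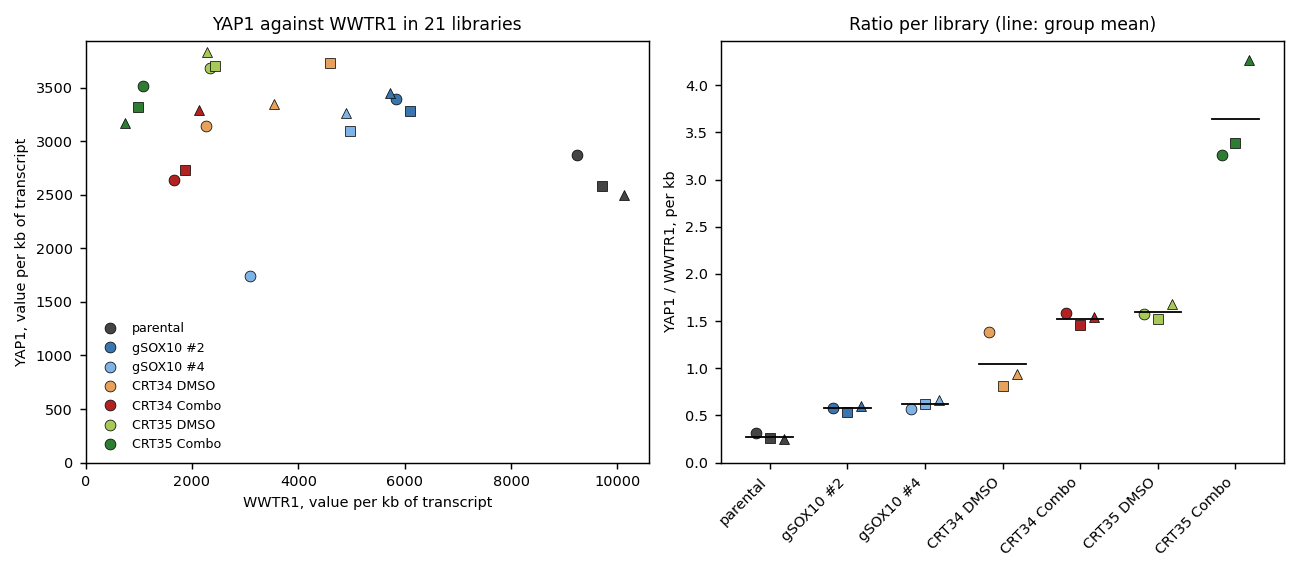
Left, YAP1 against WWTR1 in 21 libraries, both as value per kilobase of transcript. Right, their ratio per library with the group mean as a line. YAP1 stays within a narrow range apart from 1 low gSOX10 #4 library, while WWTR1 is highest in the parental libraries. The ratio runs from 0.247 in a parental library to 4.27 in a CRT35 Combo library.

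TEAD1 likewise was called in none of these comparisons. The low gSOX10 #4 replicate 1, with 2869 for TEAD1 against 9890 and 12234 in its group, also had the lowest YAP1 (9398 against 16698 and 17628) and WWTR1 of that clone. The mean make-up of the TEAD family varied between groups, which was not tested. Per kilobase, TEAD4 was 50.4% and TEAD1 33.4% of the family's summed level in parental libraries, and 13.3% and 55.5% in gSOX10 #2. In gSOX10 #4 they were 34.6% and 38.8%, with an SD of 20.3 for the TEAD1 share. Across the CRT groups TEAD4 was 23.0% to 30.8% and TEAD1 38.4% to 46.0%. These shares rest on the same reference transcripts, of 9417 bases for TEAD1 and 1710 for TEAD4, and would change with other lengths. TEAD4 fell by 2.05 in gSOX10 #2 (adjusted p = 7.82e-07), by 1.01 in gSOX10 #4, by 1.37 in CRT34 DMSO, by 1.13 in CRT34 Combo and by 1.12 in CRT35 Combo, and was -0.90 in CRT35 DMSO. VGLL3, a TEAD cofactor, rose in all 6 groups, by 1.14 to 4.10, the highest in CRT34 DMSO.

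In gSOX10 #2, 1 member rose and 2 fell, against 15.9% and 7.78% of all tested genes. CCN3 rose by 4.08 (SE 0.35, adjusted p = 6.4e-08), from 1144, 568 and 436 in parental libraries to 14545, 10163 and 9283. CCN1 fell by 1.44 (adjusted p = 0.000745), with 1916, 2223 and 1858 against 6084, 5500 and 4716, and AMOTL2 fell 2.29-fold (adjusted p = 0.00717). All 10 members had groups that did not overlap in this comparison, as did 60.6% of all tested genes, CCN2 and ANKRD1 among those not called (log2 changes -0.96 and -2.04). The 10 include CCN4, at 0.88 to 4.19 in gSOX10 #2 and 0 in parental libraries, all under the filter value of 10.

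In gSOX10 #4, 1 member rose and 2 fell, against 11.8% and 8.91%. CCN3 rose by 2.46 (adjusted p = 2.68e-05), with 4592, 3611 and 2880. WWTR1 fell as given above, and ANKRD1 fell by 3.57 (adjusted p = 0.0472), from 2643, 1547 and 1282 to 165, 217 and 85.2. CCN1, with 6017, 6727 and 4930, was within the parental range but for 1 library (log2 change 0.11, adjusted p = 0.80). The ANKRD1 call was near its threshold and was lost without any 1 of the 6 libraries, with log2 changes between -3.86 and -3.19 and an adjusted p between 0.0662 and 0.128, and with no filter, equal totals or quantile normalization.

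CCN3 was thus called higher in both clones, which share the parental libraries as their reference. Directly compared, 2 members were higher and 1 lower in gSOX10 #4 than in gSOX10 #2, against 2.64% and 7.06% of all tested genes. CCN1 was higher by 1.55 (adjusted p = 0.00104), AJUBA by 1.04 (adjusted p = 0.00073) and CCN3 lower by 1.61 (adjusted p = 0.00296). The AJUBA difference dropped just under 2-fold without gSOX10 #2 replicate 1 (0.88) or gSOX10 #4 replicate 2 (0.98).

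The CRT lines off drug had low levels of some of the targets that were higher under Combo. In CRT34 DMSO 2 members were higher and 3 lower than in parental cells, against 15.7% and 7.35% of all genes, and in CRT35 DMSO likewise 2 and 3, against 15.7% and 7.98%. The members called were, in both lines, whose comparisons share the parental libraries, CCN3 and CCN4 higher, and WWTR1, ANKRD1 and AMOTL2 lower. CCN4 passed the filter only through the CRT groups, so its call is no support, and 1 member (CCN3) was higher in each line without it. ANKRD1 fell by 6.57 (adjusted p = 0.00085) in CRT34 DMSO and by 4.47 (adjusted p = 0.0132) in CRT35 DMSO. The group means were close, at 4.60% and 4.36% of the parental mean. In CRT34 DMSO 1 library is listed at 0, and the change ranged from -8.39 to -4.47 without single libraries. AMOTL2 fell by 1.35 in CRT34 DMSO and 4.52-fold in CRT35 DMSO, to 41.2% and 22.1% of the parental mean. AJUBA was -0.93 (adjusted p = 0.000727) and -0.62 (adjusted p = 0.0136), both short of 2-fold.

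CCN3 rose by 1.13 (adjusted p = 0.0158) in CRT34 DMSO and by 2.65 (adjusted p = 7.55e-06) in CRT35 DMSO. The first call was lost without parental replicate 2 (1.02, adjusted p = 0.0575), parental replicate 3 (0.83, 0.0945) or CRT34 DMSO replicate 2 (0.91, 0.0795). CCN4 was listed at 0 in all 3 parental libraries and at up to 13.0 in the clones, so no fold against parental is given, and both CRT lines were called higher. Between the lines off drug, 1 member was higher in CRT35 than in CRT34 and none lower, against 3.69% and 4.42%: CCN3, by 1.52 (adjusted p = 0.00615).

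Under Combo, CRT34 had 4 members higher and 1 lower than parental, against 19.1% and 8.09%, and CRT35 had 3 higher and 1 lower, against 20.1% and 10.2%. CCN1 rose by 1.37 (adjusted p = 0.00101) and 1.42 (adjusted p = 0.000612), to 279% and 267% of the parental mean. CCN2 rose by 1.45 in CRT34 (adjusted p = 0.027), a call lost without parental replicate 2 (1.43, adjusted p = 0.0617) or 3 (1.36, 0.0741) or Combo replicate 1 (1.17, 0.11) or 2 (0.81, 0.193), and stood at 0.52 in CRT35 (adjusted p = 0.421). CCN3 and CCN4 were higher in both lines, and without CCN4, whose call is again no support, 3 members were higher in CRT34 and 2 in CRT35. ANKRD1 and AMOTL2, lower than parental off drug, were at 0.25 and -0.45 in CRT34 and -0.55 and -0.69 in CRT35, none of them called. Without CRT34 Combo replicate 3, CCN1 was at 1.77 against parental (adjusted p = 3.54e-05), CCN2 at 2.37 (adjusted p = 1.86e-05), ANKRD1 at 1.97 (adjusted p = 0.218) and AMOTL2 at 0.014. AJUBA, at 0.96 with all libraries and short of 2-fold, was then 1.16 and called (adjusted p = 8.21e-05).

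**Figure D5:**
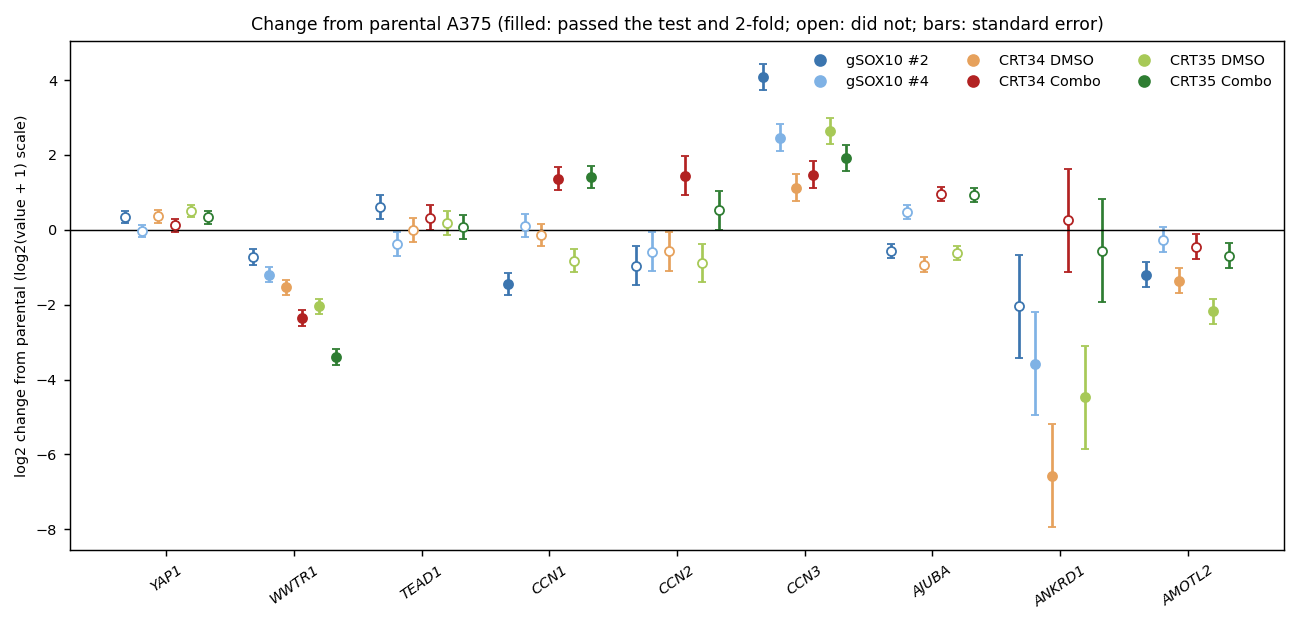
Log2 change from parental for 9 members (points, CCN4 left out because parental libraries are at 0) in the 6 other groups, with standard errors, filled where called. WWTR1 is below 0 in every group, between -0.72 in gSOX10 #2 and -3.39 in CRT35 Combo. CCN3 is above 0 in every group, and CCN1 is called higher in both Combo groups and lower in gSOX10 #2.

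Around the pathway, AMOT, the angiomotin related to AMOTL2, was lower than parental in all 6 groups, by 2.13 to 4.71. SAV1, the scaffold of MST1/2, fell by 1.35 in gSOX10 #2, and TAOK3 rose by 1.34 to 1.55 in the 4 CRT groups. CCN6 rose in both clones and in both CRT34 groups. Of the 18 other YAP/TAZ targets, 3 rose and 2 fell in gSOX10 #2, 2 and 3 in gSOX10 #4, 6 and 2 in CRT34 DMSO, 6 and 0 in CRT35 DMSO, 6 and 1 in CRT34 Combo (7 and 0 without its replicate 3) and 9 and 0 in CRT35 Combo. Of all tested genes, 15.9% rose and 7.78% fell in gSOX10 #2 and 11.8% and 8.91% in gSOX10 #4. The shares were 15.7% and 7.35% in CRT34 DMSO and 15.7% and 7.98% in CRT35 DMSO. Under Combo they were 19.1% and 8.09% in CRT34 and 20.1% and 10.2% in CRT35. In both clones the counts of targets that rose were near the share of all genes. NT5E, the ecto-enzyme CD73, rose by 2.15 and 2.66 in the clones, and TGFB2 by 5.38 in CRT34 DMSO and 2.93 in CRT35 DMSO, while F3 fell in both clones (-1.69 and -2.07) and rose in all CRT groups (1.26 to 3.30).

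Of 13 serum response factor targets, 10 rose and none fell in CRT34 DMSO and 7 and none in CRT35 DMSO, led by MYL9 (7.11 and 4.93) and TAGLN (7.80 and 4.03). Of all tested genes, 15.7% rose in either comparison. Markers of other cell types moved with the same groups. All 9 fibroblast markers were called higher than parental in each CRT group, with summed levels of 533 to 672 in parental libraries, 1700 to 3009 in the clones and 151362 to 530576 in the CRT groups. None of the 9 was at 0 throughout a CRT group. Endothelial markers summed to 168 to 221 in parental and 1946 to 7673 in CRT libraries, most of it TEK (23.6 to 50.7 in parental and 1477 to 7510 in CRT libraries). Of 5 endothelial markers tested, 3 were higher and 2 lower than parental in CRT34 DMSO, 3 and 1 in CRT34 Combo, and 2 and 1 in both CRT35 groups. The 8 melanocytic markers summed to 12319 to 14708 in parental libraries, mostly SOX10, and to 1619 to 10811 in CRT libraries, mostly MITF. Of 5 tested, 1 was higher and 3 lower in CRT34 DMSO, 0 and 2 in CRT35 DMSO, and 2 and 2 in both Combo groups. Quantile normalization moved the median change of all genes against parental by -0.14 in CRT34 DMSO, -0.12 in CRT35 DMSO, -0.16 in CRT34 Combo, -0.18 in CRT35 Combo and -0.12 in gSOX10 #2. It gave 2291 higher and 1996 lower genes in CRT34 DMSO (3035 and 1418 as reported), 2369 and 2012 in CRT35 DMSO (3032 and 1540), 2639 and 2457 in CRT34 Combo (3679 and 1560), 2913 and 2816 in CRT35 Combo (3876 and 1963), and 2288 and 1958 in gSOX10 #2 (3064 and 1501). Between the clones it gave 719 and 1044 (510 and 1362). Bulk RNA cannot tell a change per cell from a change in which cells are present, and the part of these markers in the differences from parental was not tested. Between Combo and DMSO, 3 fibroblast markers fell and none rose in CRT34, and none was called in CRT35, with medians of -0.73 and 0.48. Their summed level in CRT34 was 151362 to 173982 under Combo, below the 187603 to 246220 under DMSO. In CRT35 it was 326651 to 530576 under Combo, above the 214988 to 314130 under DMSO. In CRT34, markers of other types were called. PTPRC, of leukocytes, was 44.5, 11.0 and 4.55 under Combo against 0, 0 and 2.55 (log2 change 3.24, adjusted p = 0.00664), and ITGAM was also higher (2.89, adjusted p = 0.00471), 2 of 4 leukocyte markers tested. PTPRC was under the filter value of 10 in every CRT34 DMSO library, so its call carries little weight. VWF was higher (2.83, adjusted p = 0.00456) and PECAM1 lower (-1.90, adjusted p = 0.0236), both endothelial. Of the melanocytic markers MITF was higher, at 8954, 10247 and 3772 against 2779, 1936 and 1806 (1.72, adjusted p = 0.0022), with Combo replicate 3 again the lowest, and PMEL was higher by 1.43 (adjusted p = 0.0253). DES, of smooth muscle, was higher by 2.26 (adjusted p = 0.044), and 0 of 5 keratinocyte markers were called. In CRT35 the only call of these lists was TEK, higher by 1.33 (adjusted p = 0.0495). Their part in the drug responses of the members was not tested.

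Across all 21 libraries, genes with profiles most like those of 4 members were found among all protein-coding genes by Pearson correlation of log2 values. The libraries form groups, so these are descriptions of shared group patterns. For YAP1 they were XIAP (r = 0.941), RAB6A (0.938) and NCKAP1 (0.934), and for TEAD1 KIAA0232 (0.914), AFF4 (0.897) and VPS41 (0.895). For CCN1 they included UGCG (0.921) and GADD45B (0.879), and for CCN2 TRIM58 (0.934), TUFT1 (0.906) and NPPB (0.857). For WWTR1, looked up after its values had been seen, the first was SPRY2 (0.949), an ERK-induced inhibitor of receptor signaling that was lower than parental in all 6 groups, by 1.02 to 3.83.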

How the data were processed

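Messenger RNA of 21 A375 libraries (7 groups of 3) was sequenced as paired-end reads of 101 bases, and the authors' notes name STAR 2.6.1a, RSEM, Picard and DESeq2 on GRCh38. The labels and the methods name different TruSeq kits, so strand use is not certain. The deposited values are a signal per gene: gene counts that the authors divided by size factors (the median ratio to geometric means was 1.0126 in every library). Whole reads could not be recovered, since only 18.0% to 63.5% of low values lay within 0.05 of a whole step, so no count test was run. Symbols came from GENCODE 44, which matched 58472 of the 58870 identifiers.

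Values were tested with limma 3.58.1 (R 4.3.3) on log2(value + 1), with 1 mean per group, 14 residual degrees of freedom and Benjamini-Hochberg adjustment over the 19290 genes at 10 or more in at least 3 libraries. Fold changes are on that scale and understate those of low genes. The model was tested on simulated data. Only libraries of CRT34 Combo and CRT35 Combo with the same number deviated together (r = 0.218, 0.253 and 0.208), 1 of 15 pairs of groups.

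The members and lists were chosen with earlier results of these data known. Named genes were the members, every TEAD, VGLL and CCN gene, up to 4 called genes of lowest p per list and direction, and the 3 protein-coding genes most correlated with each of CCN1, CCN2, YAP1 and TEAD1, of which 1 is not reported here. Alternatives were another pseudocount, no filter, 2 other scalings, fits of the compared groups only, a replicate block, and the removal of libraries.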

Additional observations from a re-analysis of the deposited data

Results flagged for a closer look

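CCN1 differed between the SOX10 knockout clones: it was higher in gSOX10 #4 than in gSOX10 #2 by 1.55 on the log2 scale (adjusted p = 0.00104). AJUBA was higher in gSOX10 #4 by 1.04 (adjusted p = 0.00073), and CCN3 was lower there, with a difference of -1.61 (adjusted p = 0.00296). Each is a tested difference between the clones, which differ in guide and in clone at once. CCN3 also differed between the tolerant lines off drug, and was higher in CRT35 DMSO than in CRT34 DMSO by 1.52 (adjusted p = 0.00615). The part that clone, guide or tumor of origin has in these differences was not tested.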

How the results depend on the processing

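Of 1426 alternative values of member changes, 1338 kept their direction and side of the threshold, 38 lost a call, 27 gained one and 23 changed sign, none of these called either way. Among all genes, the CRT34 drug comparison called 983, and 1543 without both libraries that stand apart (CRT34 Combo replicate 3 and the shallow CRT35 DMSO replicate 1), 80 with only the groups compared (1 member in place of 4) and 535 to 1534 without single libraries (1534 without Combo replicate 3). CRT35 called 219, and 347 without both, and 97 to 206 without single libraries. The difference between the lines called 2 genes, 12 with a pseudocount of 10, 4 each with no filter, equal totals or quantile normalization, 281 without both, 1 with only the groups compared and 2 to 220 without single libraries (220 without CRT34 Combo replicate 3). Members called in gSOX10 #4 were 1 to 2 without single libraries (1 without its replicate 1) and between the lines off drug 1 to 2 (2 without CRT34 DMSO replicate 1). Equal totals moved the median change of all genes against parental by 0.12 in gSOX10 #2 and 0.10 in CRT34 Combo. The causes were not tested.

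With the replicate number as a block, the CRT34 drug comparison called 89 genes and 1 member (AJUBA), CRT35 412 genes and 7 members, the difference between the lines 1 gene, and CRT35 DMSO against CRT34 DMSO 1022 genes in place of 1565. The numbers pair only the Combo groups, and a block within those alone called 0 members and 3 genes for the difference. No block was fitted with gSOX10 #2, whose titles are numbered otherwise.

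Where the sign changed, absolute log2 changes were up to 1.27 as reported and up to 0.79 in the alternatives. The drug effect on CCN4 in CRT34 was -0.044 with quantile normalization and -0.44 without both libraries, and ranged from -0.44 to 0.84 without single ones. The difference between the lines for CCN2 ranged from -1.54 to 0.025. In gSOX10 #4 against parental, YAP1 was 0.079 with equal totals and 0.15 with quantile normalization and ranged from -0.19 to 0.26, TEAD1 from -0.77 to 0.28 and CCN4 from 0.0 to 1.91. In CRT34 DMSO against parental, TEAD1 ranged from -0.11 to 0.061 and CCN1 from -0.46 to 0.041. In CRT34 Combo against parental, ANKRD1 ranged from -0.79 to 1.97 and AMOTL2 from -0.77 to 0.014 (0.014 without both). CCN2 in CRT35 DMSO against CRT34 DMSO ranged from -0.53 to 0.0078. CCN4 between the clones was 0.037 with a pseudocount of 10 and ranged from -1.85 to 0.053.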
